A study of Homo sapiens with 12 samples.

Results

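Expression of 9 lung and foregut lineage transcription factors, NKX2-1, FOXA1, FOXA2, HNF4A, GATA6, SOX2, SOX9, TP63 and HOPX, was followed in 4 human lung adenocarcinoma cell lines. They were taken by gene name from a table of 60715 genes, and each name matched 1 entry. The groups were attached cells, detached cells at day 1 and detached cells at day 7, each with 1 library from the lines HCC4006, NCI-H2228, NCI-H2009 and LC-2/ad, so 12 libraries in all. All cells came from RPMI-1640 medium with serum and antibiotics; detached cells were trypsinised and kept on an ultra-low attachment surface, on which cells cannot spread, while attached cells served as the untreated control and have no time label. Loss of attachment, trypsin treatment, the new plates and the time spent in culture cannot be told apart in this design.

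These proteins set regional identity in the foregut, the embryonic tube from which airways, stomach and liver arise. NKX2-1 is the homeodomain factor of lung and thyroid and switches on surfactant genes in alveolar type 2 cells. FOXA1 and FOXA2 are forkhead pioneer factors that open chromatin for it, and HNF4A is a nuclear receptor of liver, gut and stomach that is normally silent in lung. GATA6 is a zinc finger factor of endoderm, SOX2 and SOX9 mark the proximal airway and the distal tips of the growing lung, TP63 is the p53 relative of basal cells, and HOPX is a small homeodomain protein that does not bind DNA by itself and marks alveolar type 1 cells. In mouse lung tumors, loss of Nkx2-1 is known to be followed by Hnf4a and a stomach-like program, and these factors are often read together in lung adenocarcinoma.

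The start regions of 3 of the factors are printed from RefSeq in build GRCh38.p14 (250 bases before to 50 after a start site, on the strand of the gene), because GATA6 was the factor lower in every line after detachment, HOPX the one whose lines moved furthest apart, and NKX2-1 the lung factor itself. Of the 9 factors 7 matched that table. Capitals mark matches to 4 core motifs, searched on both strands. The forkhead core was TGTTTAC. The core of zinc finger factors such as GATA6 was AGATAA. For NKX2-1 the letters CAAGTG were searched, and for the SOX family ACAATG. The cores do not overlap one another in these windows.
NKX2-1, chr14:36519507-36519806, minus strand: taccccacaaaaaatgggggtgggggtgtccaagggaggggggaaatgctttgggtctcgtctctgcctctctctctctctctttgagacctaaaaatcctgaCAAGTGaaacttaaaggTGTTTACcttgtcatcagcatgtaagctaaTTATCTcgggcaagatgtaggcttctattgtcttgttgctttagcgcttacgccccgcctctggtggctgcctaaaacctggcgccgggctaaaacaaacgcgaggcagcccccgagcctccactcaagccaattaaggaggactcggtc
GATA6, chr18:22169339-22169638, plus strand: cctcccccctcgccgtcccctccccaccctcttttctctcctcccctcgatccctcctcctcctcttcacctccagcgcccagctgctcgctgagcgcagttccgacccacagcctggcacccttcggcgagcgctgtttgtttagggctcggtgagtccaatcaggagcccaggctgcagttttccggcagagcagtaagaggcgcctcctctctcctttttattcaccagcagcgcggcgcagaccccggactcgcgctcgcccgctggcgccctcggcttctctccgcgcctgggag
HOPX, chr4:56681247-56681546, minus strand: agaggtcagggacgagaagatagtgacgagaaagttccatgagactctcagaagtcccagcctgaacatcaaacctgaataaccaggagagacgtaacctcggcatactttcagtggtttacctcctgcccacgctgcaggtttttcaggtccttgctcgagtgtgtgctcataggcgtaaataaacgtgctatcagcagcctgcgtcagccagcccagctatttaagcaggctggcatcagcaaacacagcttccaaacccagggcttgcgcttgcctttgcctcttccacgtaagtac

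The table holds a second start window each for NKX2-1 (chr14:36520183-36520482) and HOPX (chr4:56656468-56656767), neither of which held any of the 4 cores. The NKX2-1 window printed above held CAAGTG at position -147, TGTTTAC at -130 and a GATA core on the opposite strand at -100, counted to the start site. Of 35116 windows of 300 bases in the table, 3.4% held the forkhead core, 10.3% the GATA core, 11.5% the NKX2-1 core and 10.8% the SOX core. The GATA6 and HOPX windows shown held none of the 4 cores, which says only that these letters are not in these windows. Among the other windows, FOXA1 held the NKX2-1 core on the opposite strand at -12, TP63 held it at -192, and the HNF4A window at chr20:44355449-44355748 held the GATA core at -26. A second HNF4A window (chr20:44400989-44401288) held none of the 4 cores.

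Libraries held between 31134420 and 41882024 estimated counts. Epithelial identity was present throughout: all 6 epithelial markers stood at 1 TPM (a transcript level corrected for gene length and scaled to the same total in every library) or more in the 12 libraries, and their summed level ran from 3581 TPM in NCI-H2228 at day 7 to 19735 TPM in LC-2/ad at day 7. The detached libraries of NCI-H2009 held the extremes in coding genes at 1 TPM or more. The day 7 library had the most, 12397, and the day 1 library the fewest, 11454, against 11655 to 12219 in the others. On log2(TPM + 1) the median gene of the day 7 library was 0.20 higher than in attached NCI-H2009, and that of the day 1 library was 0.17 lower. On counts scaled by TMM factors these medians were 0.04 at day 7 and 0 at day 1, so TPM differences within NCI-H2009 are also given on the count scale where the choice matters. Leukocyte markers summed to between 3.6 and 38.4 TPM in attached, 33.2 and 87.2 TPM in day 1 and 18.5 and 120 TPM in day 7 libraries, almost all from CD14 and CD68. The pan-leukocyte gene PTPRC reached at most 0.834 TPM and CD3E at most 0.14 TPM. Endothelial markers summed to between 0.445 and 2.46 TPM in attached, 1.41 and 4.56 TPM in day 1 and 2.65 and 13.2 TPM in day 7 libraries. Fibroblast markers summed to at most 347 TPM in attached, 150 TPM in day 1 and 40.1 TPM in day 7 libraries. COL1A1, a fibroblast collagen, stood at 347, 150 and 39.2 TPM in attached, day 1 and day 7 NCI-H2228 and reached at most 10.9 TPM in the other lines, and LUM, another fibroblast gene, reached 43.4 TPM in LC-2/ad. Of the 5 fibroblast markers, COL1A1 alone stood at 1 TPM or more in NCI-H2228, and COL1A1 and LUM alone did so in LC-2/ad. KDR, an endothelial receptor, reached 11.8 TPM in NCI-H2009 at day 7. The part of these markers in the results was not tested. Of the epithelial markers, KRT7 had a log2 change of -1.01 ± 0.28 at day 1 (edgeR adjusted p = 0.105), CDH1 ran from 16.2 TPM in NCI-H2228 to 685 TPM in NCI-H2009, and EPCAM ran from 204 to 1634 TPM.

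The first question was whether any of these factors differed with attachment in the 4 lines together. No factor passed at either time: 0 of 8 tested factors were called at day 1 and 0 of 8 at day 7, where edgeR's quasi-likelihood test called 0.489% and 0.103% of 17395 genes at a Benjamini-Hochberg adjusted p under 0.05. Day 7 against day 1 gave 0 of 8, as it gave 0% of all genes, with adjusted p between 0.589 and 0.996. At an unadjusted p under 0.05, 1 factor at day 1 (GATA6; 19.6% of all genes), 2 at day 7 (GATA6 and FOXA1; 15.7% of all genes) and none between the detached times (9.78% of all genes) were counted, so that 1 or 2 of 8 stood near the share of all genes. The median log2 change of the 8 was 0.36 at day 1 and 0.48 at day 7, against 0.01 and 0.03 over all genes tested. In no factor did the 4 detached libraries lie wholly above or below the 4 attached ones; 0.949% of genes did so upward and 2.9% downward at day 1, and 1.09% and 1.36% at day 7.

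The second question was how far the lines themselves differed, and here most factors passed. In edgeR's test between lines 6 of 8 were called (FOXA1, FOXA2, GATA6, SOX2, SOX9 and TP63), a share near the 61.2% of all genes called. The median widest difference between lines was 2.91 on the log2 scale, against 1.55 over all genes. Cell line accounted for between 48.7% of the variance of log2(TPM + 1) for HOPX and 91.6% for FOXA2, with a median of 64.6% over all genes, and state for between 0.298% for FOXA2 and 18.1% for GATA6, with a median of 11.3%. The remainder, which holds library noise and any difference between lines in their response without separating them, was largest for TP63 (43.8%) and HOPX (41.8%), against a median of 19.1% over all genes.

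**Figure D1:**
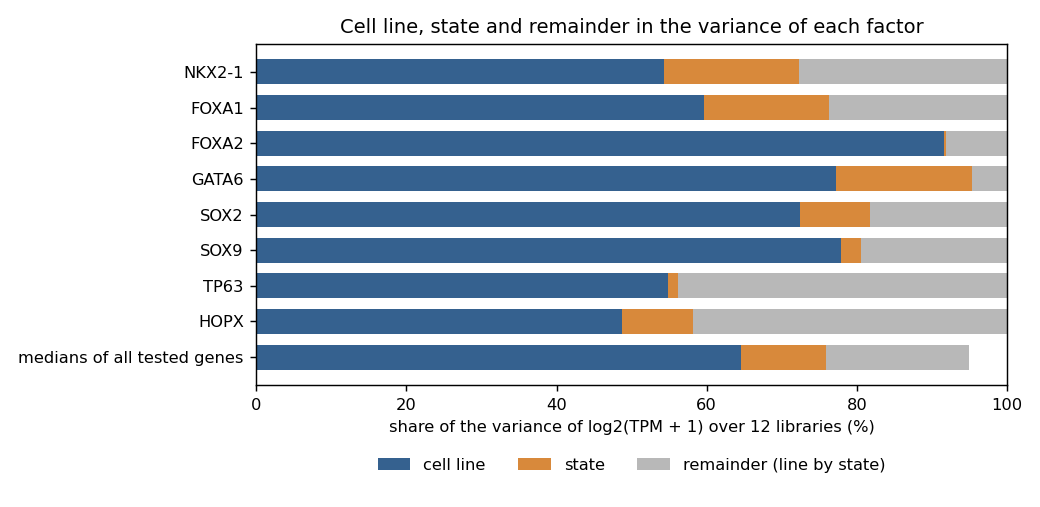
Share of the variance of log2(TPM + 1) over 12 libraries (x axis, %) taken by cell line, state and the remainder, for 8 factors and as the 3 separate medians of all tested genes, which need not add to 100%. The line share of FOXA2 was 91.6%, and the remainder was 43.8% for TP63 and 41.8% for HOPX.

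Taken 2 lines at a time, 19 of the 48 comparisons of factors passed. NCI-H2009 and LC-2/ad were the closest, with 1 of 8 factors called (28% of all genes), and NCI-H2009 differed from NCI-H2228 in 4 (37.5%) and from HCC4006 in 2 (36.7%). LC-2/ad differed from NCI-H2228 in 5 (33.8%) and from HCC4006 in 2 (29.9%), and NCI-H2228 from HCC4006 in 5 (31.9%). Of these 19 calls, 9 were kept under every alternative and 10 were lost under at least 1. The labels give no second library of any line in any state, so a line's 3 libraries differ in state, and p-values speak of the lines over their states.

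**Figure D2:**
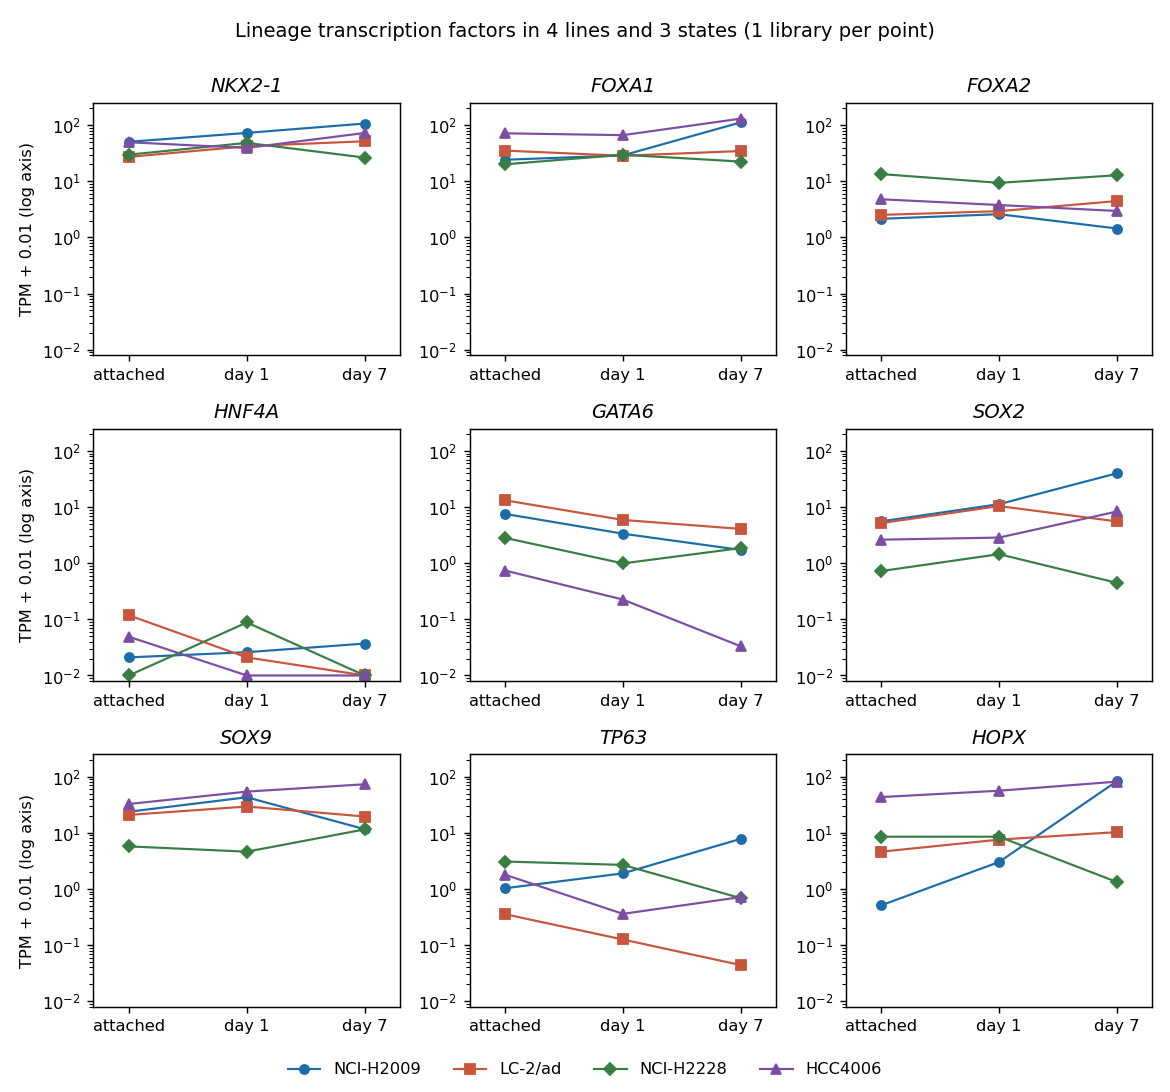
Level of each factor (y axis, TPM + 0.01, log axis) in attached cells and after 1 and 7 days of detachment (x axis), 1 point per library and 1 coloured line per cell line. NKX2-1 stayed between 26.5 and 107 TPM and HNF4A at or below 0.108 TPM, while HOPX ran from 0.501 to 83.9 TPM within NCI-H2009.

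NKX2-1 (ENSG00000136352.18, chr14:36516392-36521149, minus strand, GRCh38) was expressed in every library, with a median of 49 TPM. In attached, day 1 and day 7 cells it stood at 50.6, 72.9 and 107 TPM in NCI-H2009 and at 27.2, 42.2 and 51.8 TPM in LC-2/ad. It stood at 29.9, 48.4 and 26.5 TPM in NCI-H2228 and at 49.6, 39.4 and 72.8 TPM in HCC4006. The rise in NCI-H2009 from day 1 to day 7 depended on the scale. On log2 counts scaled by TMM factors that difference was -0.06, with 0.87 at day 1 and 0.81 at day 7 over attached cells. With estimated counts scaled to the library total alone, the ratio of day 7 to day 1 was 1.18 (95% interval for counting error 1.14 to 1.23). Detached libraries were higher in 3 of 4 lines at each time, HCC4006 being the exception at day 1 and NCI-H2228 at day 7, and the states overlapped. The log2 change was 0.56 ± 0.26 (SE) at day 1, with an edgeR adjusted p of 0.276, and 0.56 ± 0.26 at day 7, with an adjusted p of 0.339. By line mean NCI-H2009 was highest (76.9 ± 28.4 TPM, SD over its 3 states), then HCC4006 (53.9 ± 17.1 TPM), LC-2/ad (40.4 ± 12.4 TPM) and NCI-H2228 (34.9 ± 11.8 TPM). The test between lines gave an adjusted p of 0.0601 in edgeR, 0.0274 in DESeq2, 0.0325 in limma and 0.0461 in edgeR with no filter on low counts. In edgeR it was 0.0304 without the day 1 library of NCI-H2228 and 0.0207 without that of HCC4006. Over all alternatives the adjusted p ran from 0.0207 to 0.151. Neighbours in the order did not pass, and NCI-H2009 over NCI-H2228 did (log2 0.95 ± 0.30, adjusted p = 0.0325), a call lost without either detached library of NCI-H2009 or without the attached or day 7 library of NCI-H2228 (adjusted p from 0.0712 to 0.107). Reads are uncertain where NKX2-1 overlaps AL132857.1 (at most 4.92 TPM) and NKX2-1-AS1 (at most 4.28 TPM) on the opposite strand and SFTA3 (at most 1.26 TPM) on its own.

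FOXA1 (ENSG00000129514.8, chr14:37589552-37596059, minus strand) is the more abundant of the forkhead pair. Its levels in attached, day 1 and day 7 cells were 24.2, 29.0 and 113 TPM in NCI-H2009 and 35.3, 28.5 and 34.7 TPM in LC-2/ad. It stood at 20.1, 29.7 and 22.5 TPM in NCI-H2228 and at 71.7, 66.5 and 131 TPM in HCC4006. NCI-H2009 and HCC4006 had their highest level at day 7, while LC-2/ad and NCI-H2228 stayed within 20.1 to 35.3 TPM. The log2 change was 0.21 ± 0.32 at day 1 (edgeR adjusted p = 0.756) and 0.76 ± 0.33 at day 7 (unadjusted p = 0.044, adjusted p = 0.304). Lines differed (adjusted p = 0.00905). HCC4006 averaged 89.8 ± 35.9 TPM, and both NCI-H2228 (24.1 ± 5.03 TPM; log2 NCI-H2228 over HCC4006 -1.82 ± 0.39, adjusted p = 0.00609) and LC-2/ad (32.8 ± 3.73 TPM; -1.34 ± 0.38, adjusted p = 0.0243) were lower. The call for LC-2/ad was lost without its day 1 or day 7 library or without the attached or day 7 library of HCC4006 (adjusted p from 0.072 to 0.113). FOXA1 and the coding gene TTC6 overlap on opposite strands. TTC6 reached at most 4.62 TPM.

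FOXA2 (ENSG00000125798.14, chr20:22581005-22585455, minus strand), the close relative of FOXA1, differed by line more than by state. The attached, day 1 and day 7 libraries held 13.5, 9.39 and 12.8 TPM of it in NCI-H2228 and 4.78, 3.78 and 2.95 TPM in HCC4006. It stood at 2.51, 2.93 and 4.44 TPM in LC-2/ad and at 2.14, 2.59 and 1.43 TPM in NCI-H2009. All 3 NCI-H2228 libraries lay above the other 9. NCI-H2228 averaged 11.9 ± 2.2 TPM and differed in edgeR from NCI-H2009 (2.05 ± 0.583 TPM; log2 NCI-H2009 over NCI-H2228 -2.56 ± 0.42, adjusted p = 0.0013), LC-2/ad (adjusted p = 0.00699) and HCC4006 (adjusted p = 0.0119; 0.0504 without the day 1 and 0.0594 without the day 7 library of HCC4006). The other 3 lines did not differ from each other beyond their spread (adjusted p from 0.107 to 0.767). State changes were small, with log2 changes of 0.07 ± 0.35 at day 1 and -0.13 ± 0.35 at day 7. The sign at day 1 turned in the fits without the replicate block and with limma.

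The ratio of FOXA1 to FOXA2 on TPM set the lines apart in the same way. It ran from 1.49 to 3.17 in NCI-H2228, the line with the most FOXA2, and from 7.81 to 78.6 in the other 9 libraries. The highest ratios were 78.6 in NCI-H2009 at day 7 and 44.4 in HCC4006 at day 7, against 11.3 and 15 in the attached cells of those lines.

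HNF4A (ENSG00000101076.17, chr20:44355700-44434596, plus strand) was at or near 0 in all 12 libraries. It stood at 0.011, 0.016 and 0.027 TPM in NCI-H2009, at 0.108, 0.011 and 0 TPM in LC-2/ad, at 0, 0.078 and 0 TPM in NCI-H2228 and at 0.039, 0 and 0 TPM in HCC4006 (attached, day 1, day 7). The highest value was 6 estimated counts in attached LC-2/ad, and 5 libraries were listed at 0. It was too low to be tested, and no fold is given. A count of 0 allows up to 3 counts, which is 0.0716 to 0.0964 CPM (estimated counts scaled to the library total) over the libraries. Among the 19 stomach and liver genes that HNF4A and FOXA factors are known to control, 10 were tested and none was called at any time. In each library most of the 19 stood below 1 TPM. The genes at 1 TPM or more ran from 1 in attached NCI-H2009 to 7 in NCI-H2228 at day 1. Between lines 5 of the 10 were called, against 61.2% of all genes. TFF1, a gastric mucus peptide and 1 of the 2 list genes with the widest spread of lines, stood at 7.17, 93.9 and 7.44 TPM in NCI-H2228 and at 8.72, 26.3 and 2.62 TPM in HCC4006, and stayed under 3 TPM in the other lines. Its log2 change at day 1 was 3.26 ± 0.70, with an edgeR adjusted p of 0.073. SERPINA1, which codes for the antiprotease alpha-1 antitrypsin, ran from 123 to 1064 TPM. TFF3, another mucus peptide, was at 13.3 to 24.8 TPM in NCI-H2228 and HCC4006 and reached at most 0.122 TPM in NCI-H2009 and LC-2/ad.

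GATA6 (ENSG00000141448.11, chr18:22169589-22202528, plus strand) was lower in detached than in attached cells in all 4 lines at both times. In attached, day 1 and day 7 cells it stood at 7.57, 3.35 and 1.71 TPM in NCI-H2009 and at 13.2, 5.90 and 4.07 TPM in LC-2/ad. It stood at 2.82, 0.983 and 1.85 TPM in NCI-H2228 and at 0.732, 0.215 and 0.023 TPM in HCC4006, the last value resting on 1 estimated count. Being lower in all 4 lines was common, at 21.3% of all genes at day 1 and 12.1% at day 7. The 4 attached and the 4 detached libraries overlapped at both times. The log2 change was -1.22 ± 0.52 at day 1 (edgeR unadjusted p = 0.0421, adjusted p = 0.236) and -1.99 ± 0.55 at day 7 (unadjusted p = 0.0046, adjusted p = 0.16). DESeq2 gave -2.04 at day 7 with an adjusted p of 0.00362, in a fit that called 1162 genes. In bulk libraries, fewer cells with the transcript and less transcript per cell cannot be told apart.

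Within lines, GATA6 CPM at day 7 were 4.87-fold lower than in attached cells in NCI-H2009 (95% interval 4.02 to 5.94), 3.38-fold lower in LC-2/ad (2.99 to 3.82) and 1.62-fold lower in NCI-H2228 (1.30 to 2.03). In HCC4006 the ratio of 1 count to 61 was 53.0-fold lower, with an interval from 9.16 to 2126. These exact intervals cover counting error only. Lines differed (adjusted p = 0.0012). LC-2/ad was highest at 7.73 ± 4.84 TPM, followed by NCI-H2009 at 4.21 ± 3.02 TPM and NCI-H2228 at 1.89 ± 0.92 TPM, with HCC4006 lowest at 0.323 ± 0.367 TPM. HCC4006 was lower than LC-2/ad (log2 LC-2/ad over HCC4006 5.07 ± 0.70, adjusted p = 0.000781), NCI-H2009 (adjusted p = 0.0015) and NCI-H2228 (adjusted p = 0.00644). NCI-H2009 did not differ from either neighbour (adjusted p = 0.202 and 0.278). LC-2/ad over NCI-H2228 passed (adjusted p = 0.0325) and was lost without any single LC-2/ad library, or without the attached or day 1 library of NCI-H2228 (adjusted p from 0.0736 to 0.129). The antisense gene GATA6-AS1 overlaps the start of GATA6 and reached at most 0.652 TPM.

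SOX2 (ENSG00000181449.4, chr3:181711925-181714436, plus strand) was higher at day 1 than in attached cells in all 4 lines, as were 11.9% of all genes; at day 7 no factor was higher in all 4 (12.9% of all genes). Its levels in attached, day 1 and day 7 cells were 5.57, 11.3 and 40.1 TPM in NCI-H2009 and 5.17, 10.4 and 5.55 TPM in LC-2/ad. It stood at 0.714, 1.44 and 0.436 TPM in NCI-H2228 and at 2.62, 2.85 and 8.34 TPM in HCC4006. The day 1 CPM were 2.14-fold higher in NCI-H2009 (95% interval 1.88 to 2.44), 2.12-fold in LC-2/ad (1.85 to 2.43) and 2.02-fold in NCI-H2228 (1.37 to 3). In HCC4006 the ratio was 1.15, with an interval from 0.919 to 1.43 that includes no difference. At day 7 the ratio was 6.05 in NCI-H2009 (5.38 to 6.81) and 3.32 in HCC4006 (2.78 to 3.99), with 95% intervals that exclude no difference. In LC-2/ad the day 7 ratio was 1.01 (0.868 to 1.18) and in NCI-H2228 0.612 (0.357 to 1.03), both with intervals that include no difference. The log2 change was 0.98 ± 0.53 at day 1 (edgeR adjusted p = 0.337) and 1.18 ± 0.55 at day 7 (adjusted p = 0.341). Lines differed (adjusted p = 0.00427), in the order NCI-H2009 (19.0 ± 18.5 TPM), LC-2/ad (7.05 ± 2.93 TPM), HCC4006 (4.6 ± 3.24 TPM) and NCI-H2228 (0.864 ± 0.519 TPM). NCI-H2228 was lower than NCI-H2009 (adjusted p = 0.0018), LC-2/ad (adjusted p = 0.00642) and HCC4006 (adjusted p = 0.0269). The last call was lost without the attached or day 7 library of either line (adjusted p from 0.0567 to 0.0927). NCI-H2009 over HCC4006 passed narrowly (adjusted p = 0.0495) and was lost in 9 alternatives, with an adjusted p of 0.323 without the day 7 library of NCI-H2009. SOX2 lies inside the long noncoding gene SOX2-OT on the same strand, which stood at 0.132 to 2.05 TPM, so reads of the stretch they share are uncertain.

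SOX9 (ENSG00000125398.8, chr17:72121020-72126416, plus strand), the SOX factor of distal lung, was more abundant than SOX2 in 11 of 12 libraries. The attached, day 1 and day 7 libraries held 23.8, 43.1 and 11.6 TPM of it in NCI-H2009 and 20.9, 29.5 and 19.6 TPM in LC-2/ad. It stood at 5.74, 4.61 and 11.5 TPM in NCI-H2228 and at 32.7, 54.4 and 73.5 TPM in HCC4006. Day 1 was higher than attached in 3 lines and lower in NCI-H2228, and at day 7 NCI-H2228 and HCC4006 were higher and the other lines lower. The log2 change was 0.68 ± 0.47 at day 1 and 0.41 ± 0.48 at day 7 in edgeR, neither past the threshold. Lines differed (adjusted p = 0.0113; 0.0618 without the day 7 library of HCC4006 and 0.0617 with no filter on low counts). HCC4006 was highest (53.6 ± 20.4 TPM) and NCI-H2228 lowest (7.30 ± 3.72 TPM), a log2 difference NCI-H2228 over HCC4006 of -2.82 ± 0.57 (adjusted p = 0.00503). NCI-H2009 (26.2 ± 15.9 TPM) and LC-2/ad (23.3 ± 5.39 TPM) did not differ from each other (adjusted p = 0.86) or from HCC4006 (adjusted p = 0.187 and 0.138). Both were above NCI-H2228 (adjusted p = 0.0325 and 0.0433), calls that were lost without filtering and in 4 and 9 of the 12 fits that leave out a library.

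On TPM the ratio of SOX9 to SOX2 ran from 2.83 to 26.5 in 11 libraries. In NCI-H2009 at day 7 it was 0.29, against 4.28 in attached cells of that line, with both genes moving in opposite directions: SOX2 CPM were 6.05-fold higher (95% interval 5.38 to 6.81) and SOX9 2.45-fold lower (2.27 to 2.64). In NCI-H2228 the ratio at day 7 was 26.5, against 8.04 in attached cells.

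TP63 (ENSG00000073282.13, chr3:189631389-189897276, plus strand) was low and split by line. In attached, day 1 and day 7 cells it stood at 1.02, 1.89 and 7.84 TPM in NCI-H2009 and at 0.346, 0.116 and 0.034 TPM in LC-2/ad. It stood at 3.08, 2.68 and 0.675 TPM in NCI-H2228 and at 1.79, 0.351 and 0.709 TPM in HCC4006. NCI-H2009 was higher at both detached times, and the other 3 lines were lower at both. At day 7 its CPM were 6.84-fold higher in NCI-H2009 (95% interval 5.56 to 8.5), and 10.8-fold lower in LC-2/ad (3.94 to 41.4), 4.24-fold lower in NCI-H2228 (3.31 to 5.48) and 2.76-fold lower in HCC4006 (2.07 to 3.72). Over the lines this gave log2 changes of -0.87 ± 0.80 at day 1 and -0.93 ± 0.87 at day 7, neither past the threshold in edgeR, and 0.26 at day 7 in the fit without the replicate block. Lines differed (adjusted p = 0.0199), a call lost with limma (0.0591) and without the day 1 (0.0661) or day 7 (0.0634) library of LC-2/ad. LC-2/ad was below NCI-H2009 (log2 NCI-H2009 over LC-2/ad 4.46 ± 1.08, adjusted p = 0.0129; 0.0532 and 0.0563 without the day 1 and day 7 library of LC-2/ad) and NCI-H2228 (adjusted p = 0.016; 0.0569 to 0.0634 without a detached library of LC-2/ad or the day 1 library of NCI-H2228, and 0.0724 with limma, where the log2 difference was -1.34).

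The 13 basal cell genes, a list that takes TP63 as its setting, held 11 tested genes, and none was called in either detached state. At day 7 their median difference on log2(TPM + 1) was 1.11 in NCI-H2009, against 0.20 over all genes, and -0.38 in HCC4006 against -0.08, -0.64 in NCI-H2228 against 0, and -0.11 in LC-2/ad against 0.02. KRT6A, a stress keratin, stood at 69.9, 15.1 and 54.5 TPM in NCI-H2009 and at 30.4, 3.53 and 2.68 TPM in NCI-H2228 (log2 change at day 7 -2.82 ± 0.83, edgeR adjusted p = 0.168). S100A2, a calcium-binding protein of basal cells, averaged over lines a log2 change of -2.38 ± 0.53 at day 7 (adjusted p = 0.116). KRT17, a basal keratin, ran from 0 to 46.7 TPM and averaged highest in LC-2/ad, the line with the least TP63, at 33.5, 14.3 and 46.7 TPM. The list went both ways in NCI-H2009, despite its median there. At day 7 KRT17 stood at 5.57 TPM against 2.03 TPM in attached NCI-H2009, and S100A2 at 15.3 TPM against 93.8 TPM. KRT5, the defining basal keratin, named beyond the rule, reached at most 0.484 TPM.

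HOPX (ENSG00000171476.22, chr4:56647988-56681899, minus strand) moved furthest within a line and in opposite directions between lines. Its levels in attached, day 1 and day 7 cells were 0.501, 3.02 and 83.9 TPM in NCI-H2009 and 4.61, 7.58 and 10.3 TPM in LC-2/ad. It stood at 8.54, 8.54 and 1.32 TPM in NCI-H2228 and at 43.4, 56.4 and 81.9 TPM in HCC4006. At day 7 NCI-H2009 had thus reached the level of HCC4006, while NCI-H2228 was at its lowest. The estimated counts in NCI-H2009 were 1965 at day 7 against 23 in attached cells, a CPM ratio of 79.9 (95% interval 53.1 to 126). In NCI-H2228 they were 32 at day 7 against 240 in attached cells, 7.30-fold lower on CPM (5.03 to 10.9). LC-2/ad was 2.43-fold higher (1.96 to 3.04) and HCC4006 1.97-fold higher (1.83 to 2.12). Over the lines the log2 change at day 7 was 1.77 ± 1.19 (edgeR adjusted p = 0.501). That value was 0.22 without the NCI-H2009 line, 0.41 without its day 7 library and 2.9 without the NCI-H2228 line. The test between lines gave an adjusted p of 0.0851, and of 0.00427 without the day 7 library of NCI-H2009 and 0.0347 without that of NCI-H2228. HCC4006 averaged 60.6 TPM, and no pair of lines passed for HOPX.

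**Figure D3:**
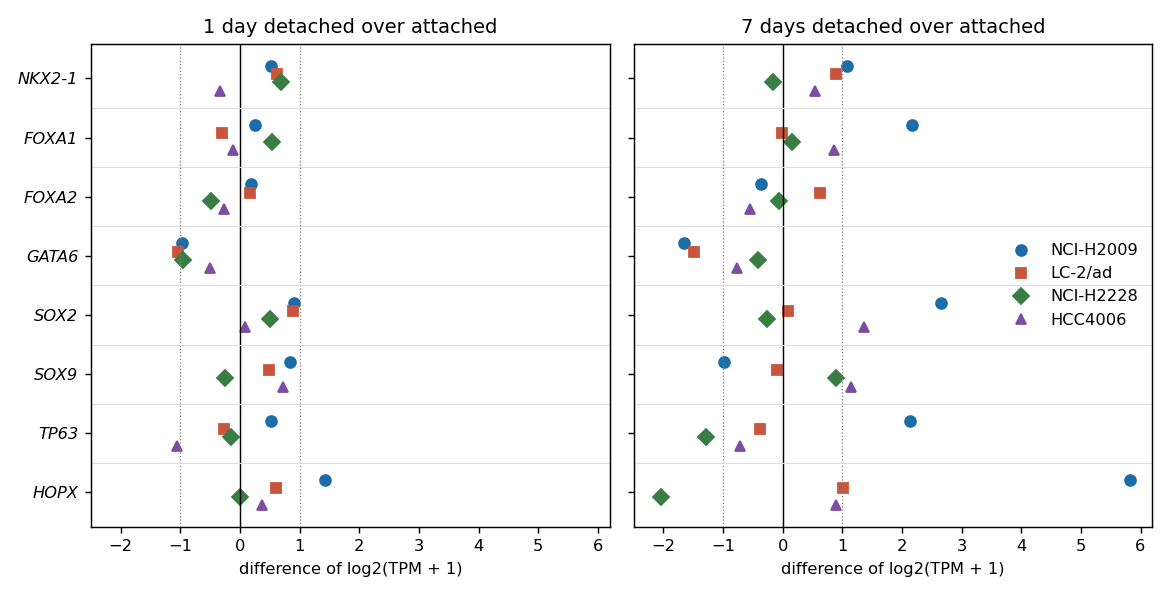
Difference of log2(TPM + 1) between detached and attached cells (x axis) for 8 factors (rows) in the 4 lines (symbols), after 1 day (left) and 7 days (right); dotted lines mark a 2-fold difference. GATA6 lies left of 0 in every line at both times, and at day 7 HOPX runs from -2.04 in NCI-H2228 to 5.82 in NCI-H2009.

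Set side by side, the factors differed in their day 7 pattern from line to line, and the count of differences of at least 2-fold depended on the scale. On TPM + 1, which understates differences of low genes, NCI-H2009 had 5 of 8 higher (NKX2-1, FOXA1, SOX2, TP63 and HOPX; 15.7% of all genes) and GATA6 lower (5.94%). LC-2/ad had HOPX higher (4.08%) and GATA6 lower (2.45%). NCI-H2228 had none higher (2.59%), and TP63 and HOPX lower (4.85%). In HCC4006 SOX2 and SOX9 were higher (3.25%) and none was lower (3.54%). The comparisons share no test, since each line has 1 library per state.

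On log2 CPM scaled by TMM factors with a prior count of 2, a scale that differs from the plain CPM of the count ratios above, low factors entered the day 7 counts. NCI-H2009 had 4 higher (FOXA1, SOX2, TP63 and HOPX; 18.4% of all genes) and GATA6 and SOX9 lower (13.6%), with NKX2-1 at 0.81 and SOX9 at -1.33. LC-2/ad had HOPX higher (10.2%), and GATA6 and TP63 lower (7.97%). NCI-H2228 had SOX9 higher (8.66%), and TP63 and HOPX lower (10.1%). HCC4006 had SOX2, SOX9 and HOPX higher (9.53%), and GATA6 and TP63 lower (8.74%). GATA6 thus passed 2-fold lower in 3 lines on this scale, as did TP63, which was more than 2-fold higher in NCI-H2009.

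At day 1 on TPM + 1, HOPX was higher in NCI-H2009 (7.31% of all genes) and none was lower (17.4%). GATA6 was lower in LC-2/ad (2.25%) and none was higher (2.59%). NCI-H2228 had none in either direction (5.81% higher and 6.63% lower over all genes), and in HCC4006 TP63 was lower (2.54%) and none higher (1.71%). On the TMM-scaled log2 CPM, NCI-H2009 had SOX2, SOX9, TP63 and HOPX higher (18.3%) and none lower (20.3%). LC-2/ad had SOX2 higher (8.92%), and GATA6 and TP63 lower (7.75%). NCI-H2228 had SOX2 higher (14.8%) and GATA6 lower (10.3%). HCC4006 had none higher (7%), and GATA6 and TP63 lower (6.85%).

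Genes that NKX2-1 is known to control in alveolar type 2 cells were listed to set beside it: 12 genes, 9 tested, none called in either detached state, and 7 called between lines, against 61.2% of all genes. Of the 9, 8 had a positive log2 change at day 7 with a median of 2.17, against 0.03 over all genes, and 5 had an unadjusted p under 0.05, against 15.7% of all genes. Their median difference on log2(TPM + 1) at day 7 was -0.26 in NCI-H2228, against 0 over all genes, and 0.77 in HCC4006, 1.02 in NCI-H2009 and 1.23 in LC-2/ad. NAPSA, the aspartic protease that matures surfactant protein B, was higher at day 7 in all 4 lines, at 18.0 TPM against 2.08 TPM in attached NCI-H2009, 26.1 TPM against 1.90 TPM in LC-2/ad, 94.4 TPM against 62.7 TPM in NCI-H2228 and 705 TPM against 82.9 TPM in HCC4006 (log2 change 2.92 ± 0.56, edgeR adjusted p = 0.0915). LAMP3, a lamellar body protein, had a log2 change of 1.93 ± 0.54 (adjusted p = 0.162) and reached 42.8 TPM in NCI-H2228 at day 7. SLC34A2, the phosphate transporter of type 2 cells, stood at 372 TPM at day 7 against 0.483 TPM in attached NCI-H2009 and at 395 TPM against 575 TPM in NCI-H2228 (log2 change over lines 4.24 ± 1.42, adjusted p = 0.205). SFTA2, a surfactant-associated protein, was highest in HCC4006 at 152 to 199 TPM. SFTPC, the gene most particular to type 2 cells, was at 0 in 11 libraries and at 0.245 TPM in HCC4006 at day 7. Among attached cells NCI-H2009 had the highest NKX2-1 (50.6 TPM), with NAPSA at 2.08 TPM and SLC34A2 at 0.483 TPM. Attached NCI-H2228 had 29.9 TPM of NKX2-1, with NAPSA at 62.7 TPM and SLC34A2 at 575 TPM. From attached to day 7, NKX2-1, NAPSA and SLC34A2 were all higher in TPM in NCI-H2009, LC-2/ad and HCC4006. In NCI-H2228 NAPSA alone was higher. A relation of these genes to NKX2-1 was not tested.

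Alveolar type 1 markers were listed to set beside HOPX: 8 genes, 7 tested. PDPN, which codes for podoplanin and defines these cells, was at 0 in every library, and AQP5, the water channel, exceeded 1 TPM in HCC4006 alone (3.11 to 17.7 TPM). CLIC5, a chloride channel protein, did so in LC-2/ad alone (3.86 to 13.7 TPM). CAV1, the caveolae coat protein, was called lower at both times, at -2.52 ± 0.45 at day 1 (edgeR adjusted p = 0.0496) and -3.74 ± 0.48 at day 7 (adjusted p = 0.0448). Both values lie close to the threshold, and adjusted p ran from 3.54e-06 to 0.95 and from 1.48e-13 to 1 over the alternatives. RTKN2 had log2 changes of -1.06 ± 0.39 and -0.97 ± 0.39, neither called. The list went both ways, with a positive log2 change in 4 of the 7 tested genes at each time. Its median log2 change was 0.15 at day 1 and 0.44 at day 7, against 0.01 and 0.03 over all genes. None of these genes besides CAV1 was called in a detached state. Between lines 6 of 7 were called, against 61.2% of all genes.

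Among other lineage factors, too, most differed between lines. All 24 airway and alveolar factors listed were tested, with none called in a detached state and 22 called between lines, where 61.2% of all genes were called. SPDEF, the goblet cell factor, ran from 99.6 to 114 TPM in HCC4006, from 17.2 to 22.7 TPM in NCI-H2228, from 2.38 to 12.4 TPM in LC-2/ad and from 0.047 to 3.04 TPM in NCI-H2009. GRHL2, an epithelial grainyhead factor, was at or below 0.594 TPM in NCI-H2228 and at 6.42 to 27.0 TPM in the other lines. ETV4, a target of fibroblast growth factor signaling in distal lung, was higher at day 7 in all 4 lines (log2 change 1.27 ± 0.30, edgeR adjusted p = 0.132), as was GRHL1 (1.41 ± 0.37, adjusted p = 0.147). FOXJ1, the factor of multiciliated cells, was chosen for mention after its values were seen: it stood at 32.7 TPM in NCI-H2009 at day 7, against 0.015 TPM in attached and 0.178 TPM in day 1 cells of that line. In attached, day 1 and day 7 LC-2/ad it stood at 1.78, 0.762 and 5.19 TPM, and it reached at most 0.077 TPM in NCI-H2228 and HCC4006.

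Of 18 gut, liver and stomach factors 12 were tested, none was called in a detached state and all 12 were called between lines, against 61.2% of all genes. GATA5, a relative of GATA6, stood at 2.04, 5.45 and 4.90 TPM in NCI-H2228 and at 1.39, 4.18 and 4.65 TPM in HCC4006, was at 0 in NCI-H2009 and had a log2 change of 1.42 ± 0.39 at day 7 (edgeR adjusted p = 0.165), in the direction opposite to GATA6. KLF4 was highest in NCI-H2009 (10.9 to 34.0 TPM) and lowest in HCC4006 (0.919 to 1.91 TPM). Of 4 neuroendocrine and tuft factors only POU2F3, the tuft cell factor, was tested. It reached 8.68 TPM in NCI-H2009 at day 7 and was not called in a detached state.

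**Figure D4:**
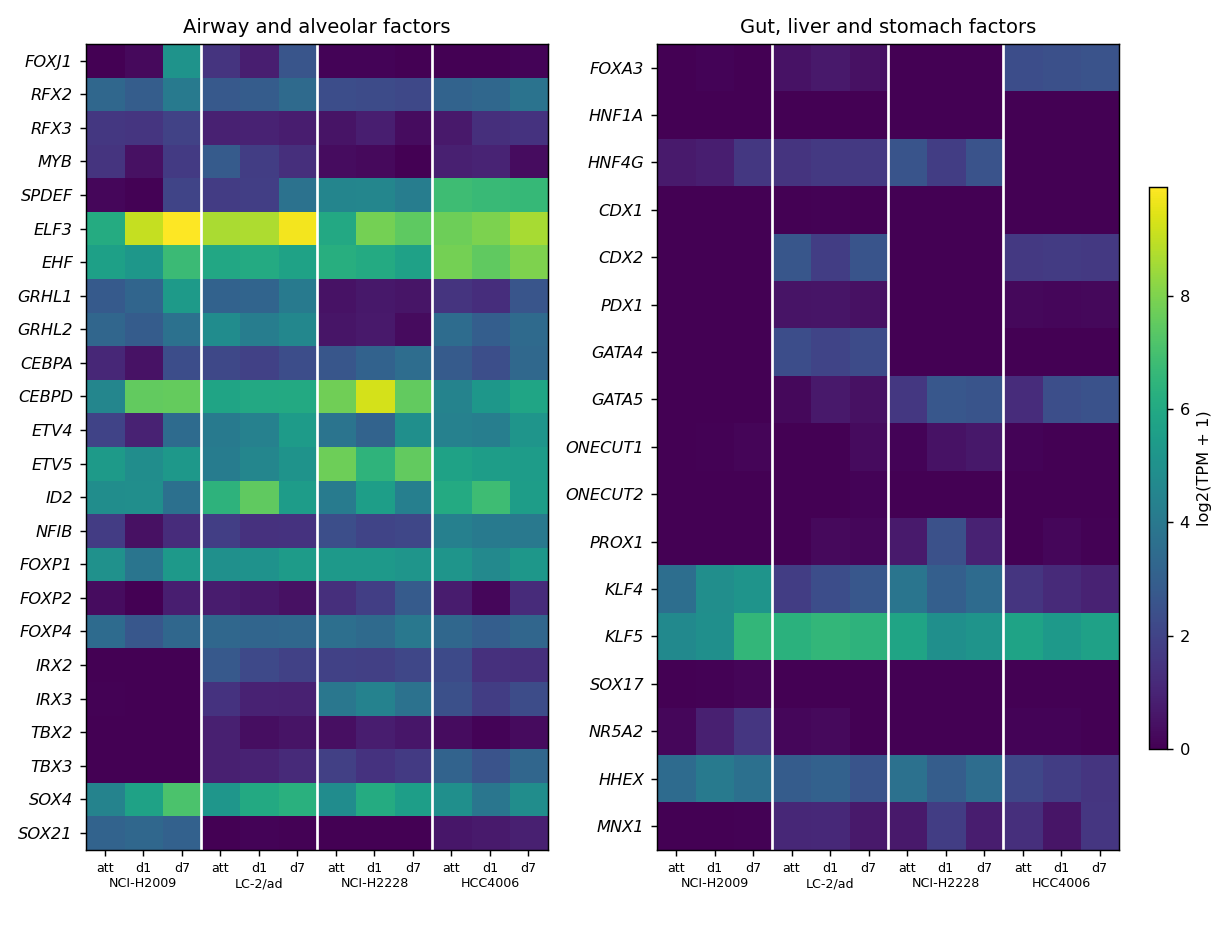
Level of 24 airway and alveolar factors (left) and of the gut, liver and stomach factors reported here (right) as log2(TPM + 1) (colour), with 1 column per library in the order attached (att), day 1 (d1) and day 7 (d7) within each line. SPDEF stands at 99.6 to 114 TPM in the 3 HCC4006 columns, and FOXJ1 is brightest in NCI-H2009 at day 7 (32.7 TPM).

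Distal lung progenitor genes, the setting of SOX9, held 8 genes, of which 6 were tested and none was called in a detached state. Between lines 5 of the 6 were called, against 61.2% of all genes. ID2, an inhibitor of helix-loop-helix factors in the distal tips, had a log2 change of 0.98 ± 0.24 at day 1 (edgeR adjusted p = 0.0881) and -0.70 ± 0.24 at day 7 (adjusted p = 0.219). BMP4, the tip growth factor, stood at 47.1 to 82.2 TPM in NCI-H2228 and HCC4006 and at 1.32 to 8.97 TPM in the other lines. ETV5 was highest in NCI-H2228 (86.2 to 213 TPM). The 7 noncoding genes beside the factors were low, with a summed level of at most 9.86 TPM, and 2 were tested, with none called. SOX9-AS1, antisense to SOX9, reached 5.17 TPM in NCI-H2009 at day 1.

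The factors were paired with other genes by Pearson's r of log2(TPM + 1) over the 12 libraries, given as a description: the libraries share 4 lines, and 10296 coding genes were candidates. The genes most like NKX2-1 were WBP1 (0.91), MTMR3 (0.90) and PTGES (0.90), and those most like FOXA1 were ZNF552, TNFSF15 and NCMAP (0.95 each). CDH11, a mesenchymal cadherin, was most like FOXA2 (0.96), ran from 0.012 to 1131 TPM and was followed by TNFRSF10A (0.96) and AIFM2 (0.95). TMEM14B (0.96), PHB (0.95) and SNRPC (0.95) were most like GATA6, and ENPP5 (0.96), ATP6V0E2 (0.95) and AL591806.3 (0.95) most like SOX2. RNF7 (0.95), COX7A2 (0.91) and CAPN12 (0.90) were most like SOX9, RFX5 (0.89), NHLRC3 (0.86) and UBE2W (0.86) most like TP63, and COL9A2 (0.94), TMEM175 (0.94) and FAM214A (0.93) most like HOPX. Among the factors themselves r was highest for FOXA1 with HOPX (0.90) and NKX2-1 with SOX2 (0.79), and lowest for FOXA2 with SOX2 (-0.89) and GATA6 with HOPX (-0.70). By Spearman's rho 6 of the 24 named genes were also among the 3 genes most like their factor.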

How the data were processed

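RNA was measured in 12 libraries, made from RNeasy RNA; per the labels' protocols the kit was SMART-Seq v4 PLUS. The submitters' processing notes name GRCh38. The sources used here give neither the aligner and quantifier nor the use of strand, so overlapping genes are uncertain. The authors deposited TPM and estimated counts per gene, per the file headers; TPM add up to 1000000 per library, and 31.5% of the estimated counts above 0 are not whole.

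Estimated counts were rounded and fitted with edgeR 4.0.16 (R 4.3.3): TMM factors, its filter on low counts by state, and a quasi-likelihood model of state and cell line over the 12 libraries, 6 residual degrees of freedom, 17395 genes tested, Benjamini-Hochberg adjustment over all of them, threshold 0.05. The SE restates the test. The biological coefficient of variation was 38.7%. DESeq2 1.42.0 and limma 3.58.1 (on log2(TPM + 1)) were alternatives; the test was also tested on simulated data. Within a line there is no test. Count ratios there carry exact 95% intervals, for counting error only.

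No label says that libraries come from separate cultures beyond the 4 lines. The p-values for state and for line were both judged against the remainder of the fit, the spread of line by state. They say nothing of other cultures of a line. Lines pair the states: deviations from state means correlated at 0.72 to 0.82 for the same line (12 pairs) and at -0.38 to -0.09 for different lines (36 pairs). Beside the 9 factors, the text names from each list the genes with 5 TPM in a library that have the 2 smallest p at day 7 or the 2 widest ranges of line means, the 3 genes most like each factor, and, of the genes that overlap a factor, those that reached 1 TPM and GATA6-AS1. Outside that rule FOXJ1 and the defining markers KRT5, PDPN, SFTPC, PTPRC and CD3E were named after their values were seen. The factors and lists were chosen with earlier results of these data known. No per-sample column was left unused. From the list of gut, liver and stomach factors, 1 gene that the rule names is counted but not reported here.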

Additional observations from a re-analysis of the deposited data

Results flagged for a closer look

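FOXA1 in HCC4006 stood apart at day 1: at 66.5 TPM, against 28.5 to 29.7 TPM in the other 3 lines, its gap to the nearest line on log2(TPM + 1) was 0.952 of the whole range of the group, above the 95% critical value for 4 samples. Chance gives such a gap in about 1 group in 20. Each of the 8 tested factors was scanned in each of the 3 states, so a flag of this kind can arise by chance. HCC4006 also had the highest FOXA1 in attached cells (71.7 TPM) and at day 7 (131 TPM).

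TP63 and HOPX moved in opposite directions in different lines at day 7. TP63 differed from attached cells by 2.13 on log2(TPM + 1) in NCI-H2009 and by -1.28 in NCI-H2228. HOPX differed by 5.82 in NCI-H2009 and by -2.04 in NCI-H2228. With 1 library per line and state, neither difference between lines was tested.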

How the results depend on the processing

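The number of genes called for state depended on the fit, and the number called between lines did not. At day 1 against attached the 85 calls became 0 without the replicate block (825 at an unadjusted p under 0.05), 1709 with DESeq2, 2 with DESeq2's size factors, 265 with no filter on low counts, 0 with only the 2 states compared, 307 with limma and 0 to 6 with a library or line left out. At day 7 against attached the 18 became 0 without the replicate block (518 unadjusted), 1162, 6, 114, 1, 63 and 0 to 69 in the same order. At day 7 against day 1 the 0 calls of edgeR (1702 unadjusted) became 193 with DESeq2 and 6 with no filter. Calls between lines numbered 10649, with 9503 to 12174 over the alternatives. The cause was not tested. Of the factors, 1 state change passed in 1 alternative, GATA6 at day 7 with DESeq2.

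Signs turned for some state changes. No state change of a factor was called in edgeR's main fit, so each that turned was uncalled from the outset. FOXA2 at day 1 was 0.07, and was -0.15 without the replicate block, -0.10 with limma and -0.28 to 0.23 with a library or line left out; at day 7 it was -0.45 to 0.14 with one left out. FOXA1 at day 1 was -0.06 to 0.47 and SOX9 at day 7 was -0.03 to 0.86 with one left out, and TP63 at day 7 was 0.26 without the replicate block. With one left out HOPX at day 7 was 0.22 to 2.9 and TP63 at day 7 was -2.09 to -0.27. limma on log2(TPM + 1) moved the median of all genes to -0.11 at day 1. Of 24 genes most like a factor, 6 were also taken by Spearman's rho. Within-line differences moved beyond their counting error (taken as 0.5 of the interval's width) under 68 of 192 settings of pseudocount or of log2 CPM, the last chosen after seeing the data. Depth limits HNF4A, GATA6 in HCC4006 and TP63 in LC-2/ad.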
